A study of Mus musculus with 6 samples.

Results

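Nrg1, Hbegf, Egfr, Erbb2, Erbb3 and Erbb4 encode 2 ligands and the 4 receptors of the ErbB family, and all 6 were measured among 14549 genes. They were chosen by gene symbol, with earlier results of these data known, and all 6 passed the filter on low values. RNA with poly A tails was sequenced from dissected epicardium and subepicardium, the outer layers of the heart, of mouse embryos at E16.5, late in gestation. Libraries 1, 2 and 4 of the control group are labelled wild-type. Libraries 1, 2 and 3 of the double knockout, called dKO, come from Meis1fl/fl;Meis2fl/fl;WT1-Cre embryos, in which both Meis genes are deleted in cells that have expressed the Cre. Wt1, the gene that drives the Cre, is active in epicardium. Whether the control embryos carried the Cre or the floxed alleles is not stated in the labels. Each library was a pool of 2 hearts, so the spread between single hearts was not measured. Tissue was dissected and not sorted, so RNA of neighbouring cell types is part of each value.

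ErbB receptors are tyrosine kinases that pair on ligand binding. EGFR binds the EGF-type ligands, ERBB3 and ERBB4 bind neuregulins, ERBB4 also binds HB-EGF, ERBB2 has no known ligand of its own, and the kinase of ERBB3 is weak, so both depend on partners. In the embryonic heart, neuregulin 1 from the endocardium acts on ERBB2 and ERBB4 of cardiomyocytes and is needed for trabeculation. HB-EGF, the product of Hbegf, is made as a membrane protein, is released by metalloproteases and takes part in valve formation through EGFR.

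The recovered reads per library ran from 13146322 to 20635676. Meis2 fell in the dKO pools (78.3 ± 13.0 to 41.3 ± 5.59, SD, n = 3; log2 change -0.90, limma adjusted p = 0.00352), whereas Meis1 did not pass (77.8 ± 24.8 and 65.9 ± 7.82, SD, n = 3; log2 change -0.20, limma adjusted p = 0.521); the values cover all exons and do not measure the deleted part alone. Of 12 epicardial and mesothelial markers, 12 were measured and 12 were lower in the dKO pools. That is a contrast of genotypes and does not check the tissue label. On the log2 scale that list averaged 6.88 to 7.20 in controls against 4.15 to 4.51 in dKO pools. For 14 cardiomyocyte markers it was 7.59, 8.61 and 8.73 in control 1, 2 and 4, against 9.85 to 10.11 in dKO pools, so control 1 was lowest. Mitochondrially encoded genes held 5.99% to 10.4% of the signal in controls and 11.3% to 19.9% in dKO pools, highest in dKO 1, and their part in the results was not tested. Y-linked Ddx3y exceeded Xist in 1 of 3 control and 2 of 3 dKO pools.

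Of the 6 genes, Hbegf, Erbb2 and Erbb4 rose in the dKO pools, and none fell by the test. Nrg1, Egfr and Erbb3 did not pass. The rises were 2.19-fold for Hbegf, 1.85-fold for Erbb2 and 1.88-fold for Erbb4, as ratios of group means. By role, 1 of 2 ligands and 2 of 4 receptors were higher. Among all 14549 genes 22.0% were called in either direction and 9.81% were called higher. The groups did not overlap for 4 of the 6 genes, against 40.4% of all genes. The test was limma on log2 of the normalised read count plus 1, with p-values adjusted by the Benjamini-Hochberg method over all genes and a threshold of 0.05. A normalised read count is in reads per 1e6 of a scaled library size, and a log2 change is dKO minus control. Adding 1 makes the changes of low genes look smaller.

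**Figure D1:**
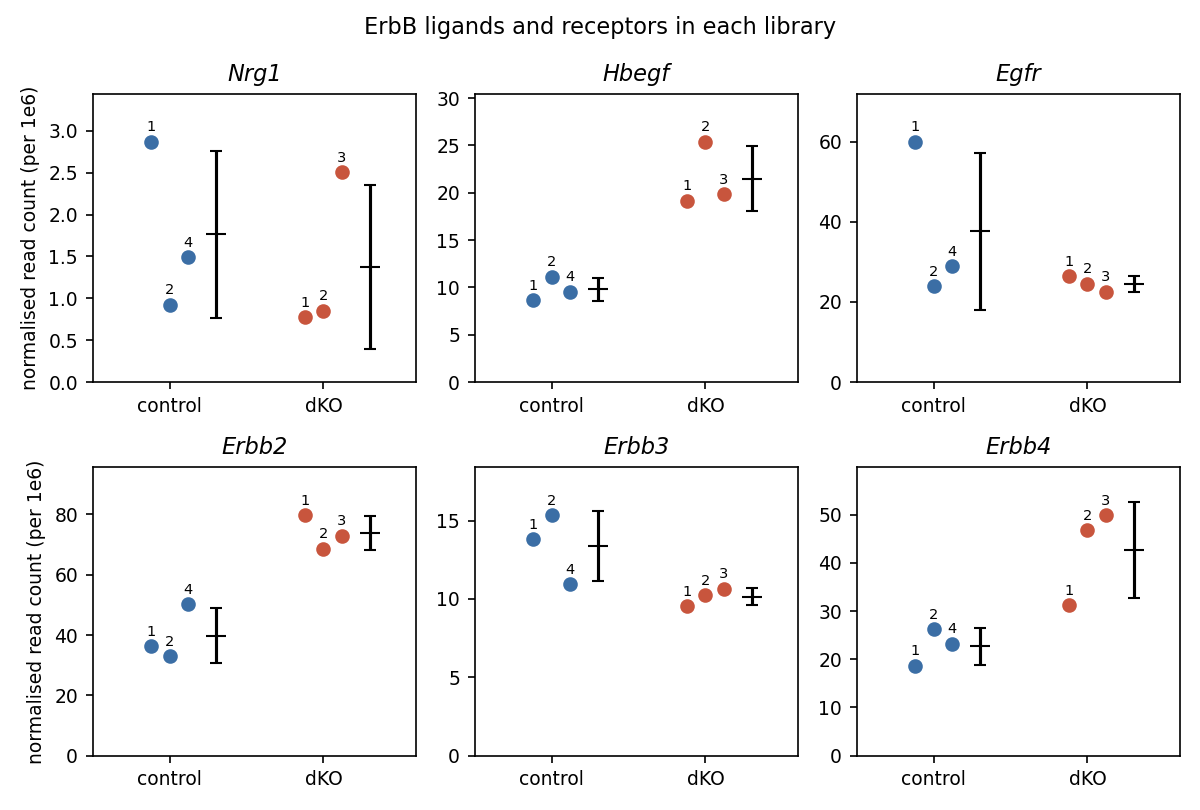
Normalised read count (per 1e6) of the 6 genes in each library, with the library number above each point and the group mean ± SD in black (n = 3). Hbegf, Erbb2 and Erbb4 are higher in every dKO library than in any control, and control 1 stands apart for Egfr at 60.0.

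Among the ligands, Hbegf (ENSMUSG00000024486, GRCm38 chromosome 18, 36504927 to 36515805) had normalised read counts of 8.68, 11.1 and 9.56 in control 1, 2 and 4, against 19.2, 25.4 and 19.9 in dKO 1, 2 and 3. The lowest dKO library lay above the highest control, and dKO 2 was the highest of the 6. The Hbegf mean was 9.79 ± 1.25 (SD, n = 3) in controls against 21.5 ± 3.42 (SD, n = 3) in dKO pools. Its log2 change was 1.05 with a standard error (SE) of 0.20 and a 95% interval of 0.62 to 1.49 (limma adjusted p = 0.00413). An exact two-sided permutation test gave p = 0.1, the smallest value that 3 against 3 libraries allow. Between 140 and 407 reads supported each Hbegf value.

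Nrg1 (ENSMUSG00000062991, chromosome 8, 31814551 to 32884029), the only neuregulin gene analysed here, was the lowest of the 6. Its normalised read counts were 2.87, 0.925 and 1.49 in control 1, 2 and 4, against 0.777, 0.851 and 2.51 in dKO 1, 2 and 3. The groups overlapped, with 1 library of each group (control 1 and dKO 3) well above the rest. Those values rest on 46, 14 and 23 reads in the controls, and the dKO values on 12, 11 and 51 reads. By counting error alone, the exact Poisson 95% intervals of control 1 (33.7 to 61.4 reads) and control 2 (7.65 to 23.5 reads) do not meet, so these controls differ beyond it. The Nrg1 log2 change was -0.23 (SE 0.39, 95% interval -1.09 to 0.63, limma adjusted p = 0.722; exact permutation p = 0.5). That interval holds both a 2-fold fall and a rise of 0.63 on the log2 scale, so a change of either size was not excluded. Gene-level values do not separate the 18 annotated Nrg1 transcripts, which encode neuregulin types with different N-terminal parts.

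None of the 3 other measured EGF-type ligand genes passed the test. Tgfa, which encodes TGF-alpha, a ligand of EGFR, was 12.9, 12.7 and 14.9 in control 1, 2 and 4, against 4.76, 2.70 and 11.3 in dKO 1, 2 and 3. Every dKO library was below every control, but dKO 3 was far nearer to the controls than the other dKO libraries. The Tgfa log2 change was -1.18 (SE 0.38, 95% interval -2.02 to -0.33), with a limma adjusted p of 0.0502. The Tgfa change was -1.65 without dKO 3 (limma adjusted p = 0.00582) and -0.78 without dKO 2 (limma adjusted p = 0.151), and with edgeR on all libraries the adjusted p was 0.115. Egf was 2.32, 2.46 and 1.43 in controls against 3.45, 5.14 and 3.48 in dKO pools, again without overlap (log2 change 0.71, SE 0.29, limma adjusted p = 0.106). Btc, the gene of betacellulin, a ligand of EGFR and ERBB4, overlapped between the groups at 6.21, 2.27 and 3.65 in controls against 2.52, 4.03 and 2.75 in dKO pools (log2 change -0.24, limma adjusted p = 0.661; 0.06 without control 1). Areg, Ereg, Epgn, Nrg2, Nrg3 and Nrg4 were not analysed here.

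Within libraries, the ratio of Hbegf to Tgfa normalised read counts was 0.671, 0.879 and 0.642 in control 1, 2 and 4, against 4.03, 9.41 and 1.75 in dKO 1, 2 and 3. The ratio was higher in every dKO library than in any control. Which of these genes has the higher level in controls depends on the length used: per kb of all exons Hbegf was above Tgfa in control 2 (2.30 and 1.95) and below it in controls 1 and 4, and per kb of the longest transcript it was above Tgfa in all 3. The ratio of counts was chosen after its values were seen and was not tested.

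**Figure D2:**
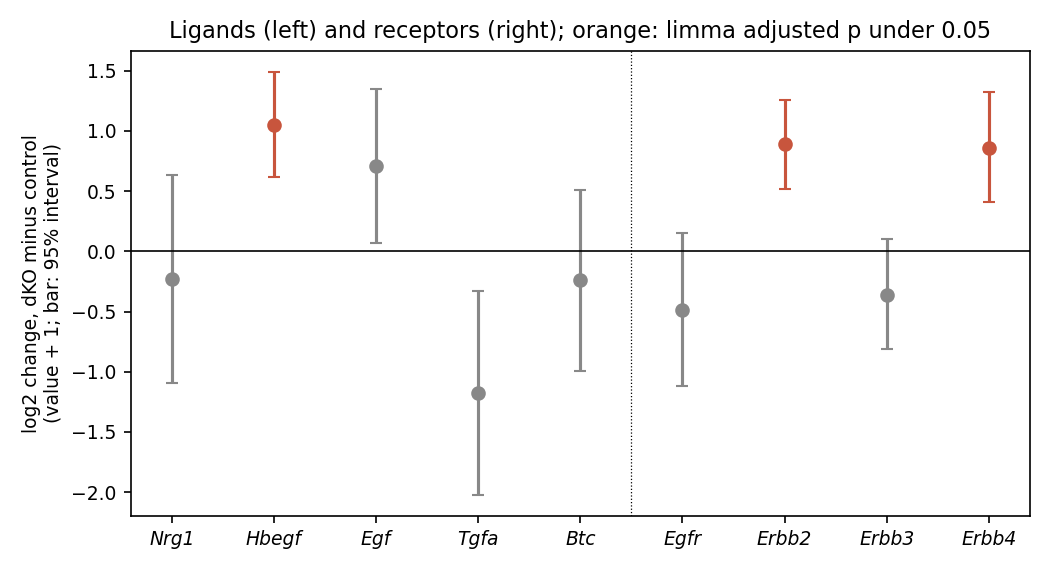
Log2 change (dKO minus control, of the value plus 1) with its 95% interval for 5 ligand genes on the left and 4 receptor genes on the right. Hbegf at 1.05, Erbb2 at 0.89 and Erbb4 at 0.86 passed the threshold, and the interval of Tgfa (-2.02 to -0.33) also excludes 0 while its adjusted p does not pass.

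Of the receptors, Erbb2 (ENSMUSG00000062312, chromosome 11, 98412470 to 98437716), the shared partner of the family, had normalised read counts of 36.4, 32.9 and 50.2 in control 1, 2 and 4, against 79.8, 68.6 and 72.9 in dKO 1, 2 and 3. The groups were well apart, and control 4 was the control nearest to the dKO pools. Its mean rose from 39.8 ± 9.14 to 73.8 ± 5.64 (SD, n = 3). The Erbb2 log2 change was 0.89 (SE 0.17, 95% interval 0.52 to 1.26, limma adjusted p = 0.0041; exact permutation p = 0.1).

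Erbb4 (ENSMUSG00000062209, chromosome 1, 68032186 to 69108059), the receptor of neuregulins and HB-EGF, was 18.7, 26.3 and 23.2 in control 1, 2 and 4, against 31.2, 46.8 and 49.9 in dKO 1, 2 and 3. All dKO libraries lay above all controls, with dKO 1 close to the highest control. Erbb4 rose from 22.7 ± 3.82 to 42.6 ± 10 (SD, n = 3), a log2 change of 0.86 (SE 0.21, 95% interval 0.41 to 1.32, limma adjusted p = 0.0137; exact permutation p = 0.1). The call was lost without dKO 2 (limma adjusted p = 0.0584) or without dKO 3 (limma adjusted p = 0.0635), with changes of 0.79 and 0.74. The ratio of Erbb4 to Erbb2 counts was 0.513, 0.798 and 0.462 in controls against 0.392, 0.682 and 0.685 in dKO pools, with no separation of the groups. The mean difference of its log2 was -0.02, a description that was chosen after the values were seen.

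The promoters of Erbb2 and Erbb4 are shown because these are the receptor genes that were called higher in the dKO pools. RefSeq promoter entries for GRCm38.p6 matched 3 of the 6 genes (Egfr, Erbb2 and Erbb4). The lines below give, 5′ to 3′ on the gene's strand, bases 250 to 21 before the annotated start, at chr11:98412234-98412463 on the plus strand for Erbb2 and chr1:69108080-69108309 on the minus strand for Erbb4, with a CCAAT box in capitals.
Erbb2: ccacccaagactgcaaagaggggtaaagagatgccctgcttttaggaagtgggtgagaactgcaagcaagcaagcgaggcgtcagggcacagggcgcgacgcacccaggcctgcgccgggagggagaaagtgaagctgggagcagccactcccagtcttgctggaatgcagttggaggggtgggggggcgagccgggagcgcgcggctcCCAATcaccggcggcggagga
Erbb4: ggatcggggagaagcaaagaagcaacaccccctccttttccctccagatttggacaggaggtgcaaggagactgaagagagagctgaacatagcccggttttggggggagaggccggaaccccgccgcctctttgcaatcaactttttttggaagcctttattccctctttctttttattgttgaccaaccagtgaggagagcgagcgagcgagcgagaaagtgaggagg

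On both strands of these 230 bases, TGACAG, the core of the motif that MEIS proteins bind, was not matched for Erbb2, Erbb4 or Egfr. It occurs in 14.8% of 32851 RefSeq promoter windows of the same length. CCAAT was matched 1 time, in Erbb2, starting 41 bases before the start, and occurs in 32.2% of the windows. GGGCGG, the GC box, was matched in none of the 3 and occurs in 29.8%. The motifs do not overlap one another here, and G and C made up 65.2% of the Erbb2 and 53.0% of the Erbb4 bases, against a median of 51.7% over all windows. These matches describe letters in a short window and not bound sites.

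Egfr (ENSMUSG00000020122, chromosome 11, 16752203 to 16918158), the receptor of the EGF-type ligands, was 60.0, 23.9 and 28.9 in control 1, 2 and 4, against 26.5, 24.5 and 22.5 in dKO 1, 2 and 3. Control 1 was more than 2 times any other library, while controls 2 and 4 lay within or close to the dKO range. The Egfr mean was 37.6 ± 19.6 (SD, n = 3) in controls against 24.5 ± 1.96 (SD, n = 3) in dKO pools. Its log2 change was -0.49 (SE 0.29, 95% interval -1.12 to 0.15, limma adjusted p = 0.258; exact permutation p = 0.3). Without control 1 the change was -0.10 (limma adjusted p = 0.764).

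Erbb3 (ENSMUSG00000018166, chromosome 10, 128567523 to 128589652), a neuregulin receptor known from Schwann cells and from the cardiac cushions, was 13.8, 15.3 and 11.0 in control 1, 2 and 4, against 9.54, 10.2 and 10.6 in dKO 1, 2 and 3. The groups did not overlap, but control 4 and dKO 3 were nearly equal. The Erbb3 log2 change was -0.36 (SE 0.20, 95% interval -0.81 to 0.10, limma adjusted p = 0.246; exact permutation p = 0.1), so a fall of up to 0.81 on the log2 scale was not excluded by the interval. Of 12 Schwann cell and glial precursor markers 7 were measured, and 3 were lower (Cdh19, Mbp and Pmp22). Their mean log2 value was 4.34 to 4.61 in controls against 3.59 to 3.63 in dKO pools. Cdh19 had 27, 29 and 51 reads in control 1, 2 and 4, against 0, 1 and 0 reads in dKO 1, 2 and 3. Sox10, Foxd3, Gfra3 and S100b, which define these cells, were not analysed here. The part of such cells in the Erbb3 value was not tested.

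Against one another, levels were set per kilobase of annotated exon, as normalised read count per kb. Erbb2 was highest in both groups, at 7.65 ± 1.75 (SD, n = 3) in controls against 14.2 ± 1.08 (SD, n = 3) in dKO pools. In controls the order was Egfr (3.32 ± 1.73), Erbb3 (2.22 ± 0.371), Hbegf (2.03 ± 0.258), Erbb4 (1.84 ± 0.309) and Nrg1 (0.170 ± 0.0967), all SD with n = 3. Egfr, Erbb3, Hbegf and Erbb4, neighbours in that order, lay within their spread of one another.

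In dKO pools Hbegf (4.44 ± 0.708) came after Erbb2, followed by Erbb4 (3.45 ± 0.81), Egfr (2.16 ± 0.173), Erbb3 (1.69 ± 0.0928) and Nrg1 (0.133 ± 0.0946), all SD with n = 3. By group means, Hbegf thus moved from below Egfr and Erbb3 in controls to above them in dKO pools. Single controls did not all keep that order. Hbegf was already above Egfr in control 2 (2.30 and 2.11) and above Erbb3 in control 4 (1.98 and 1.82). In dKO pools the single values of Hbegf (3.97 to 5.26) and Erbb4 (2.53 to 4.04) still overlapped. Nrg1 was lowest in both groups. Its exons add up to 10.35 kb over many transcripts, so its level per kb understates a shorter transcript; with the longest transcript as length it stayed lowest, at 0.326 in controls. With that length Hbegf, at 3.39, moved above Erbb3 in controls.

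Within libraries, the ratio of Hbegf to Egfr counts was 0.145, 0.466 and 0.331 in control 1, 2 and 4, against 0.725, 1.04 and 0.881 in dKO 1, 2 and 3. The groups did not overlap, and Hbegf was higher relative to Egfr in each dKO library. The ratio of Egfr to Erbb2 was 1.65, 0.726 and 0.575 in controls against 0.332, 0.357 and 0.309 in dKO pools, where every dKO value was below every control. The ratio of Erbb3 to Erbb2 was 0.379, 0.467 and 0.218 in controls against 0.120, 0.149 and 0.146 in dKO pools. All of these ratios were chosen after values were seen and carry no test.

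In bulk RNA, fewer cells of a type and less RNA per cell cannot be told apart, and markers of several cell types moved with the genotype. Cardiomyocyte markers, of cells known to express Erbb2 and Erbb4, rose for 13 of 14 genes with a median log2 change of 1.72. The 3 of highest mean over both groups were Actc1 (2576 to 6758), Myh7 (1393 to 5375) and Ttn (1331 to 4819). The log2 changes of Erbb2 (0.89), Erbb4 (0.86) and Hbegf (1.05) were smaller than this median. Relative to the mean of the cardiomyocyte list in the same library, Hbegf changed by -0.61, Erbb2 by -0.78 and Erbb4 by -0.80. Relative to that of the mural list Hbegf changed by 0.08, Erbb2 by -0.08 and Erbb4 by -0.11. Against the endothelial list they changed by 1.0, 0.84 and 0.81. Against the fibroblast, Schwann cell and epicardial lists all of them rose further, by up to 3.81. Within the controls, control 1 was lowest for the cardiomyocyte list, Erbb4 and Hbegf but not for Erbb2, which was lowest in control 2. In the dKO pools, dKO 1 had the highest cardiomyocyte value, the highest Erbb2 and the lowest Erbb4.

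With the cardiomyocyte list mean as a covariate, none of the 6 genes passed (Erbb2 0.55, limma adjusted p = 0.671; Erbb4 0.50, limma adjusted p = 0.781; Hbegf 0.77, limma adjusted p = 0.627). The covariate does not overlap between the groups, so genotype and cardiomyocyte RNA cannot be told apart by that fit. Mural markers, of pericytes and smooth muscle, rose for 6 of 8 genes (median 1.11), led in level by Acta2, Rgs5 and Abcc9. Of the smooth muscle genes in that list, Acta2 (1.44) and Cnn1 (1.81) were higher. Myh11 (-0.20, limma adjusted p = 0.864) and Tagln (0.35, limma adjusted p = 0.385) did not pass. Myh11 was 18.0, 1.76 and 1.43 in control 1, 2 and 4, against 3.02, 4.85 and 2.61 in dKO 1, 2 and 3. Its control mean thus rests on control 1, and all dKO values lay above controls 2 and 4. Tagln shares 67.9% of its exonic bases with Gm48529 and Pcsk7, so some of its reads may not be its own. Fibroblast markers were lower for 7 of 8 genes (median -1.38) and macrophage markers for 4 of 7 (median -0.82), while 2 of 4 measured neuron markers were higher (median 0.78). Endothelial markers had 1 of 9 lower (Tek) and a median of 0.24. Of 4 measured endocardial markers, the cell type known as a source of Nrg1, 2 were lower (Npr3 from 122 to 28.0, and Tmem108), while Nfatc1 was 27.5 and 26.7. The part of any of these cell types in the 6 genes was not tested.

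**Figure D3:**
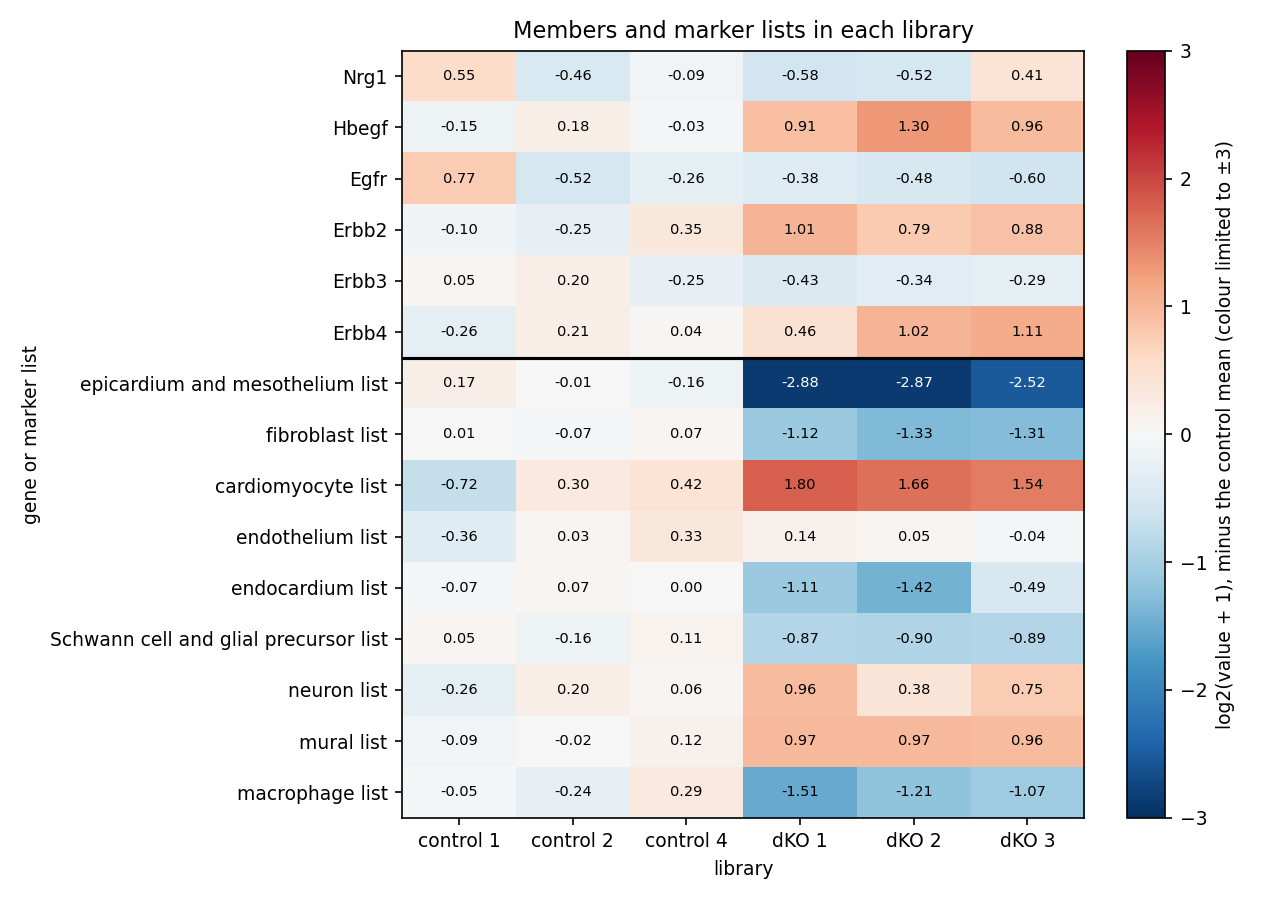
Log2 of the value plus 1, minus the control mean, for the 6 genes (above the line) and for the mean of each of 9 marker lists (below it) in every library. The cardiomyocyte list is at 1.54 to 1.80 in dKO pools, above the values of Hbegf (0.91 to 1.3), Erbb2 (0.79 to 1.01) and Erbb4 (0.46 to 1.11), and the epicardial list is at -2.88 to -2.52.

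By root mean square difference of centred log2 values over the 6 libraries, among 10880 genes with a mean of at least 5, the genes nearest to Hbegf were Cacnb2, a calcium channel subunit gene (difference 0.040), and Kcnj2, a potassium channel gene (0.072). Cacnb2 was 16.9, 22.3 and 18.5 in controls against 38.6, 47.7 and 39.9 in dKO pools. Nearest to Erbb4 were Ppip5k2 and the endothelin receptor gene Ednra (both 0.098), and nearest to Erbb2 were Tmem144 (0.080) and the acetyl-CoA synthetase gene Acss2 (0.085). Sh3d19, near to Egfr in profile (0.142), likewise was high in control 1 (121 against 57.0 and 69.6). Erbb3 was nearest to Snx7 (0.032) and Zc4h2 (0.048). Nrg1 was nearest to Ift27 (0.115) and Col23a1 (0.157), both high in control 1 and dKO 3 as Nrg1 was. Likeness over 6 libraries of this kind is a description of the profiles.

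Most genes that act around the receptors were not called. Of 112 further pathway genes listed, 101 were measured, of which 8 were higher, 9 lower and 84 not called. That is 16.8% called, against 22.0% of all genes, and the median log2 change was -0.04 against 0.00. The count of higher genes fell to 4 when dKO 2 was left out, and to 5 when control 2 or dKO 3 was.

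The list on ligand release held Bace2, the gene with the lowest log2 change of all pathway genes measured. Of 12 sheddases and their regulators, 1 was higher and 2 were lower, with a median of -0.23. Adam19, a metalloprotease known to act on neuregulins, had normalised read counts of 106, 123 and 130 in controls against 229, 247 and 243 in dKO pools. The 3 dKO libraries were nearly equal and all above the controls (log2 change 1.0, SE 0.12, limma adjusted p = 0.000383). Bace2, an aspartyl protease related to the neuregulin-cleaving Bace1, fell from 57.9 ± 2.68 to 15.6 ± 3.92 (SD, n = 3; log2 change -1.85, limma adjusted p = 0.000127). Timp3, an inhibitor of ADAM17, fell from 566 ± 75.8 to 253 ± 7.22 (SD, n = 3; log2 change -1.15, limma adjusted p = 0.000292). Syn3 and other genes share exonic bases with Timp3 (21.3%) and Adam19 (10.1%), so some of their reads may not be their own.

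Among 16 measured negative regulators of the receptors, 1 rose and 1 fell. Sh3kbp1, which acts with CBL proteins in receptor uptake, was 74.6, 117 and 86.1 in controls against 193, 210 and 212 in dKO pools (log2 change 1.16, limma adjusted p = 0.000838). Socs5, which promotes loss of EGFR, fell by 0.50 on the log2 scale (73.1 to 51.6, limma adjusted p = 0.0149; 0.065 without dKO 2). Of 8 receptor partners and scaffolds, 1 passed, the heparan sulphate proteoglycan gene Sdc4, whose protein class binds HB-EGF. Sdc4 was 71.2, 60.7 and 42.5 in controls against 15.0, 19.1 and 21.0 in dKO pools (log2 change -1.59, limma adjusted p = 0.000618). It moved opposite to Hbegf in all 3 dKO libraries.

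Downstream of the receptors, 4 of 28 adaptor and PI3K-AKT genes were higher and 0 lower (median -0.08). Pik3r3, a regulatory subunit of PI3K that binds ERBB3, was 13.6, 17.1 and 17.0 in controls against 25.5, 55.2 and 53.8 in dKO pools, with dKO 1 nearest to the controls (log2 change 1.37, limma adjusted p = 0.00572); 24.3% of its exonic bases are shared with Gm49337. The adaptor genes Gab1 (0.48, limma adjusted p = 0.0188) and Grb2 (0.35, limma adjusted p = 0.0486) and the kinase gene Akt1 (0.50, limma adjusted p = 0.0196) rose by less than 1.5-fold. Grb2 did not pass when any of the 6 libraries was left out (limma adjusted p from 0.0718 without control 2 to 0.142 without dKO 2). Gab1 was lost without control 2 (limma adjusted p = 0.051), control 4 (0.0656) or dKO 2 (0.0847), and Akt1 without control 2 (limma adjusted p = 0.0651), dKO 2 (0.0619) or dKO 3 (0.073).

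Of 15 RAS-MAPK genes 1 was higher and 2 were lower (median -0.02). Mapk14, which encodes p38-alpha, fell by 0.58 on the log2 scale (87.1 to 57.7, limma adjusted p = 0.00567).

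The response genes, which other receptor kinases such as FGF receptors also drive, did not move in 1 direction. Apart from Hbegf itself, 1 of 19 was higher and 3 were lower (median -0.10). Over all genes 22.0% were called. Spry1, whose protein inhibits receptor kinase signalling, was 55.1, 65.5 and 65.3 in controls against 38.0, 23.2 and 24.6 in dKO pools (log2 change -1.12, limma adjusted p = 0.00261), Spry2 fell by 0.94 (limma adjusted p = 0.00916) and Spred1 by 0.53 on the log2 scale (limma adjusted p = 0.0107). Among the related inhibitor genes of the list, chosen here after their values were seen, Spry4 (0.46), Spred2 (-0.10), Dusp4 (-0.23) and Dusp6 (-0.36) did not pass. All Spry1 values of the dKO pools lay below the controls, with dKO 1 the nearest. Ier3, an immediate early gene, rose by 0.70 (limma adjusted p = 0.0493), a call that was kept without control 2 and lost without each other library (limma adjusted p = 0.0768 to 0.161). Exonic overlap with Gm42922 covers 24.4% of Spry1.

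**Figure D4:**
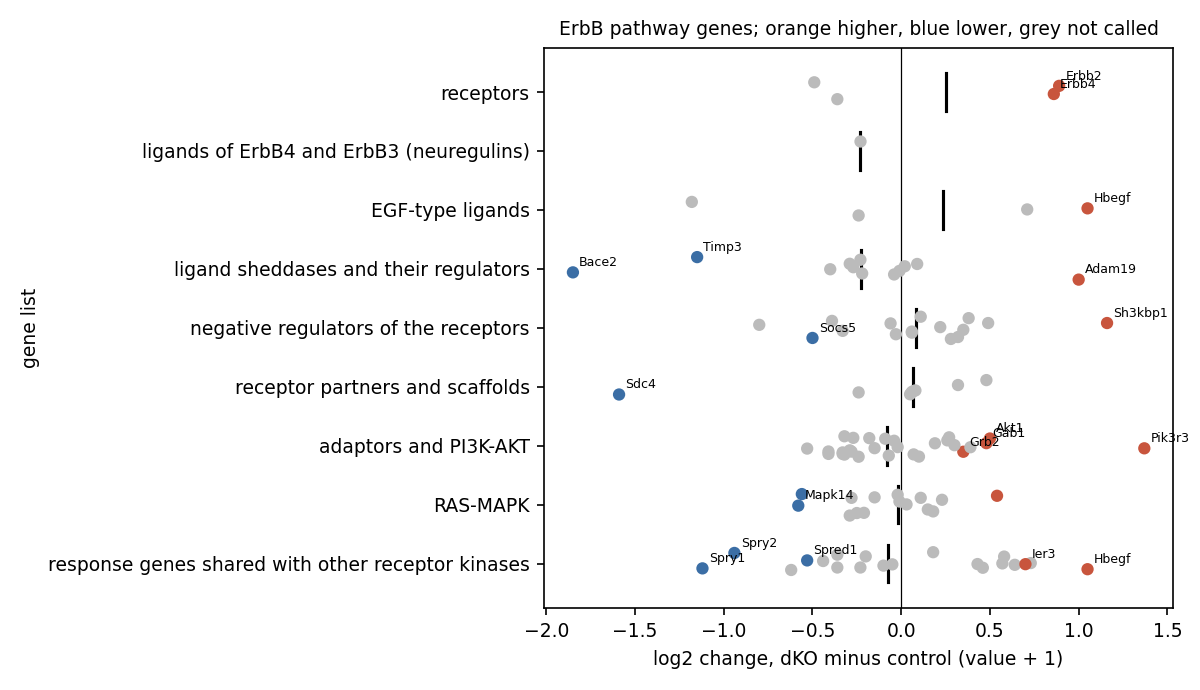
Log2 change (dKO minus control, of the value plus 1) of each measured gene in 9 pathway lists, the 6 genes included, with the list median as a black bar. Most genes lie near 0 and were not called; Bace2 at -1.85, Sdc4 at -1.59 and Pik3r3 at 1.37 are farthest from 0 among those called.

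Across 18 other settings of filter, scale, test, covariate and left-out libraries, Hbegf stayed past the threshold in 16, Erbb2 in 17 and Erbb4 in 14. Erbb3 and Egfr passed in none of the 18, and Nrg1 in none of the 13 in which it was tested. The setting without a filter equals the reported fit, because the filter removed no gene, so it adds nothing to these counts.

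**Figure D5:**
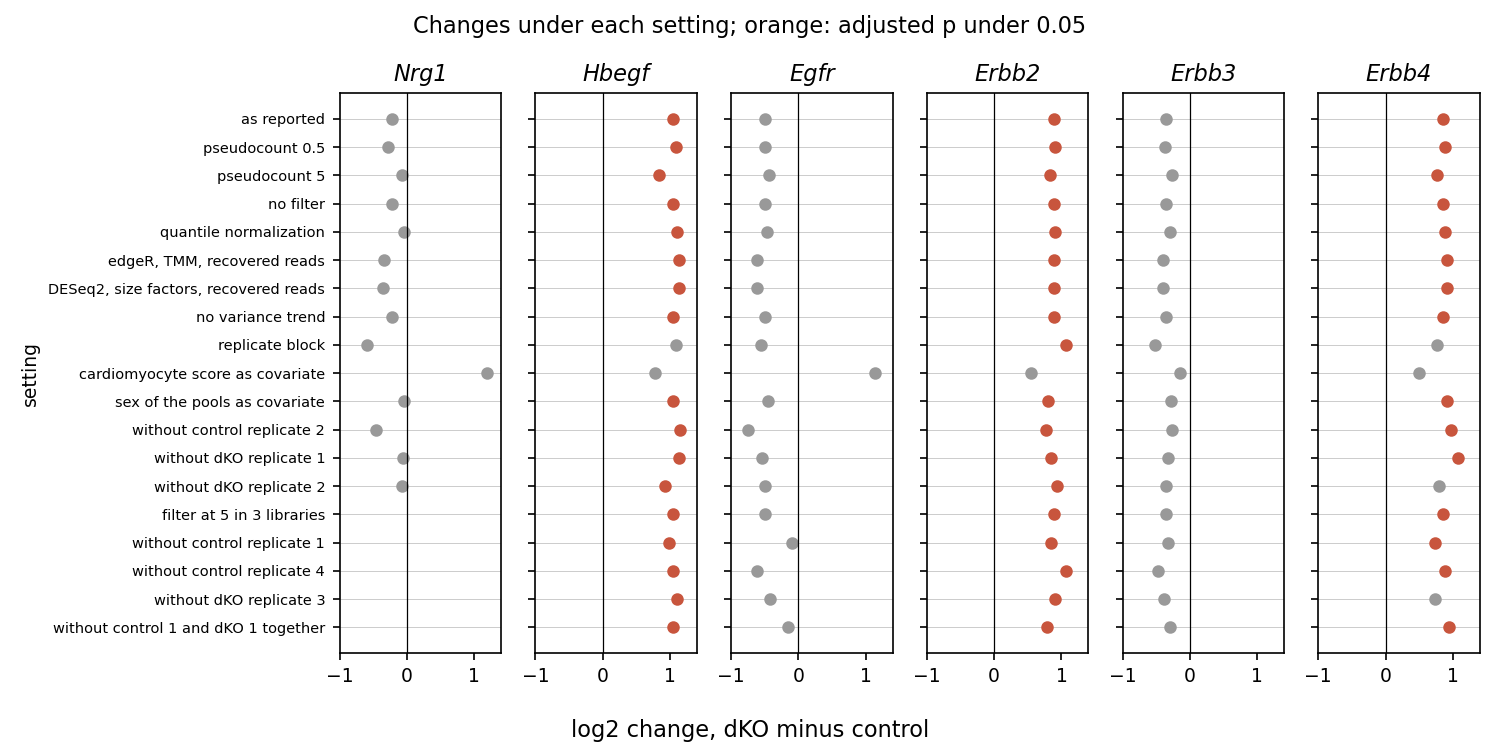
Log2 change of the 6 genes (dKO minus control) as reported and under each of 18 other settings, with orange points where the adjusted p is under 0.05. Erbb2 passes everywhere except with the cardiomyocyte covariate (0.55), and Nrg1 has no point where the filter on low values removed it.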

How the data were processed

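Libraries were grouped by the genotype in their titles: 3 control and 3 dKO, each a pool of 2 hearts at E16.5. Per the submitters' processing notes, cutadapt and RSEM 1.3.1 were used with GRCm38; for the annotation release and the normalization, the sources used here state nothing. The deposited signal is a normalised value: all 87294 values, 100% of them, were whole reads plus 0.5, per 1e6 of a scaled library size, within 0.01 reads, and 1 read was worth 0.0487 to 0.0740. Values are called normalised read counts. The kit is not stated to keep strand.

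A minimum of 1 in at least 3 libraries removed no gene of 14549. Main test: limma 3.58.1 (R 4.3.3) with a variance trend on log2(value + 1), no covariate, two-sided, Benjamini-Hochberg over all genes, threshold 0.05. edgeR 4.0.16 (2956 genes called) and DESeq2 1.42.0 (3621) were run on the recovered reads as alternatives, beside other pseudocounts (0.5 and 5), filters, scalings, covariates and left-out libraries. A test on simulated data for this comparison (14253 genes) recovered 59 of 100 genes changed 2-fold and 97 of 100 changed 4-fold, with 9 false calls. The changed genes were drawn from those with a mean of at least 5, so recovery was not measured for lower genes such as Nrg1, Egf and Btc. No other genes were changed there, whereas 22.0% of all genes were called in the data, so recovery may differ in the data. Positions, exon lengths and overlaps come from GENCODE M21 (GRCm38), where 14530 identifiers were found.

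The 6 genes and all lists were chosen with earlier results of these data known. Named in the text are the 6 genes, the other measured ligand genes, up to 4 genes with the smallest p among those called in each pathway list, up to 3 abundant markers per list named, and for each of the 6 genes 1 or 2 of the 2 nearest in profile. Markers named beyond that (Cdh19, Mbp, Pmp22, Tek, Npr3, Tmem108, Nfatc1, Cnn1, Myh11, Tagln) were chosen after their values were seen. Results of some genes that the rule would name are not reported here. Intervals on reads cover counting error only.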

Additional observations from a re-analysis of the deposited data

How the results depend on the processing

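The direction of Hbegf, Erbb2, Erbb4 and Erbb3 was kept under all 18 alternatives, with log2 changes of 0.77 to 1.14, 0.55 to 1.07, 0.50 to 1.07 and -0.51 to -0.14. Among these alternatives, the one without a filter is the reported fit itself. With the cardiomyocyte list mean as a covariate, Hbegf (0.77), Erbb2 (0.55) and Erbb4 (0.50) no longer passed, and Egfr (1.13, limma adjusted p = 0.333), Nrg1 (1.18, limma adjusted p = 0.684) and Btc (1.03) changed sign; 54 genes were then higher and 190 lower, with 0 and 1 among the pathway genes. That covariate separates the groups. Leaving out 1 library at a time gave 881 to 1265 genes higher and 1261 to 1556 lower, 4 to 9 pathway genes higher and 9 to 12 lower. Erbb4 was then 0.74 to 1.07 (limma adjusted p = 0.0584 without dKO 2 and 0.0635 without dKO 3). Btc ran from -0.52 without control 2 to 0.06 without control 1, and was 0.16 without control 1 and dKO 1 together. Without a variance trend 4 pathway genes were higher. A covariate for the sex of each pool was added after seeing the data, and Hbegf, Erbb2 and Erbb4 passed with it.

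Numbers 1 and 2 occur in both groups, but nothing in the labels pairs the pools, and deviations of same-numbered libraries had correlations of -0.18 and -0.20 over genes. With the replicate block, 580 genes were higher and 780 lower, 3 pathway genes were higher and 5 lower, and Hbegf (1.09, limma adjusted p = 0.0686) and Erbb4 (0.76, limma adjusted p = 0.117) did not pass.

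With the longest transcript as length, levels per kb were 0.326 and 0.255 for Nrg1, 3.39 and 7.43 for Hbegf in control and dKO pools, and 2.40 for Egfr in dKO pools. Nrg1 was removed by the filter in 5 alternatives, and its 11 to 51 reads per library limit what can be seen.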
